A study of Danio rerio with 10 samples.

Results

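The genes described here encode cyclins, cyclin-dependent kinases and pocket proteins that control the step from the G1 phase of the cell cycle into DNA replication. Of 10 genes chosen by name, 8 were present in the deposited table of 21756 genes: the D cyclins ccnd1 and ccnd2a, the E cyclins ccne1 and ccne2, the kinases cdk2 and cdk6, and the pocket proteins rb1 and rbl1. The other 2, ccnd3 and cdk4, were not analysed here. The choice used names and not measured values, but it was made with earlier results of these data known.

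In vertebrate cells D cyclins are made in response to growth signals and activate Cdk4 and Cdk6, which phosphorylate Rb and its relative p107 (rbl1). Unphosphorylated pocket proteins hold E2F transcription factors in check. Once released, E2F drives the genes of DNA synthesis and also ccne1 and ccne2, whose products activate Cdk2 and add to the phosphorylation of Rb. Resting microglia, the macrophages of the brain, divide rarely, and in mammals they are known to divide more after injury.

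The libraries came from brains of zebrafish aged 3 months with 2 transgenes, Neuro:NTR-mCherry and mpeg1:GFP. GFP driven by mpeg1 marks macrophages, microglia included, and cells that make nitroreductase (NTR) are killed by metronidazole (MTZ), which it converts to a toxin. Control microglia are GFP-positive cells of fish given DMSO (samples 1 and 5, n = 2), activated microglia are GFP-positive cells of fish given MTZ for 24 h (samples 3 and 7, n = 2) or 48 h (samples 4 and 8, n = 2), and other brain cells are GFP-negative cells (samples 2, 6 and 10, n = 3) whose treatment the labels do not give. All groups carry both transgenes and are the same age, no untransgenic fish are among them, and no label tells if 2 samples of a group are separate animals, so that p-values measure only the spread between these samples.

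Total reads ran from 6185540 to 12815571 over the 9 libraries used. The column labelled control microglia sample 9 held the same value as that of 24 h sample 3 in all 21756 genes and was left out. The check of the labels of microglia against other brain cells held: 10 of 10 microglia markers were higher in control microglia, and 10 of 10 in activated microglia, than in other brain cells. Between activated and control microglia 0 of the 10 were called, so these markers cannot check those labels. The summed signal of these markers was 40247 to 42516 in control microglia, 32677 to 120683 in activated microglia and 203 to 762 in other brain cells. Values below are signal as normalized by the authors, where 0 reads stand at 0.223 and 3 reads are worth between 0.216 and 0.464 units above that. Differences between groups are of log2(signal + 1), with their standard error (SE), and a gene is called where its adjusted p is under 0.05 in limma with Benjamini-Hochberg adjustment over the 21714 genes tested. In bulk samples, fewer cells of a type and less RNA per cell cannot be told apart.

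Activated microglia differed from other brain cells in 7 of the 8 genes. The 5 higher ones were ccnd1, ccne1, cdk2, rb1 and rbl1, the 2 lower ones were ccnd2a and cdk6, and ccne2 was not called. Among all genes tested, 22.9% were called higher and 27.6% lower in this comparison, or 50.5% in either direction. Control microglia differed from other brain cells in 2 of the 8, with ccnd1 higher and cdk6 lower, where 15.1% of all genes were called higher and 20.2% lower, or 35.2% in either direction. Both counts include cdk6, which was tested only because of its signal in other brain cells, the group where it was higher. The median difference of the 8 genes was 1.44 for activated microglia against other brain cells, where all genes had a median of -0.05, and -0.35 for control microglia, where all genes had a median of -0.14.

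Between activated (n = 4) and control microglia (n = 2) limma with Benjamini-Hochberg adjustment called 0 of the 8 genes, where 0.834% of all genes were called higher and 0.47% lower. Without adjustment, 6 of the 8 were at p under 0.05, where 20.5% of all genes were. In 5 of the 8 (ccne1, ccne2, cdk2, rb1 and rbl1) every activated library lay above both control libraries, as in 15.9% of all genes, and in ccnd2a every activated library lay below them, as in 15.5% of all genes. The median difference of the 8 genes was 1.04, beside 0.01 for all genes. limma-voom on the reads computed from the signal also called 0 of the 8. The count changed under 3 alternatives: without 48 h sample 8, 4 of the 8 were called higher (ccne2, cdk2, rb1 and rbl1, among 1550 genes called), with all 9 libraries in the same fit 2 were (ccne2 and rb1), and with a filter at 5 rb1 was.

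**Figure D1:**
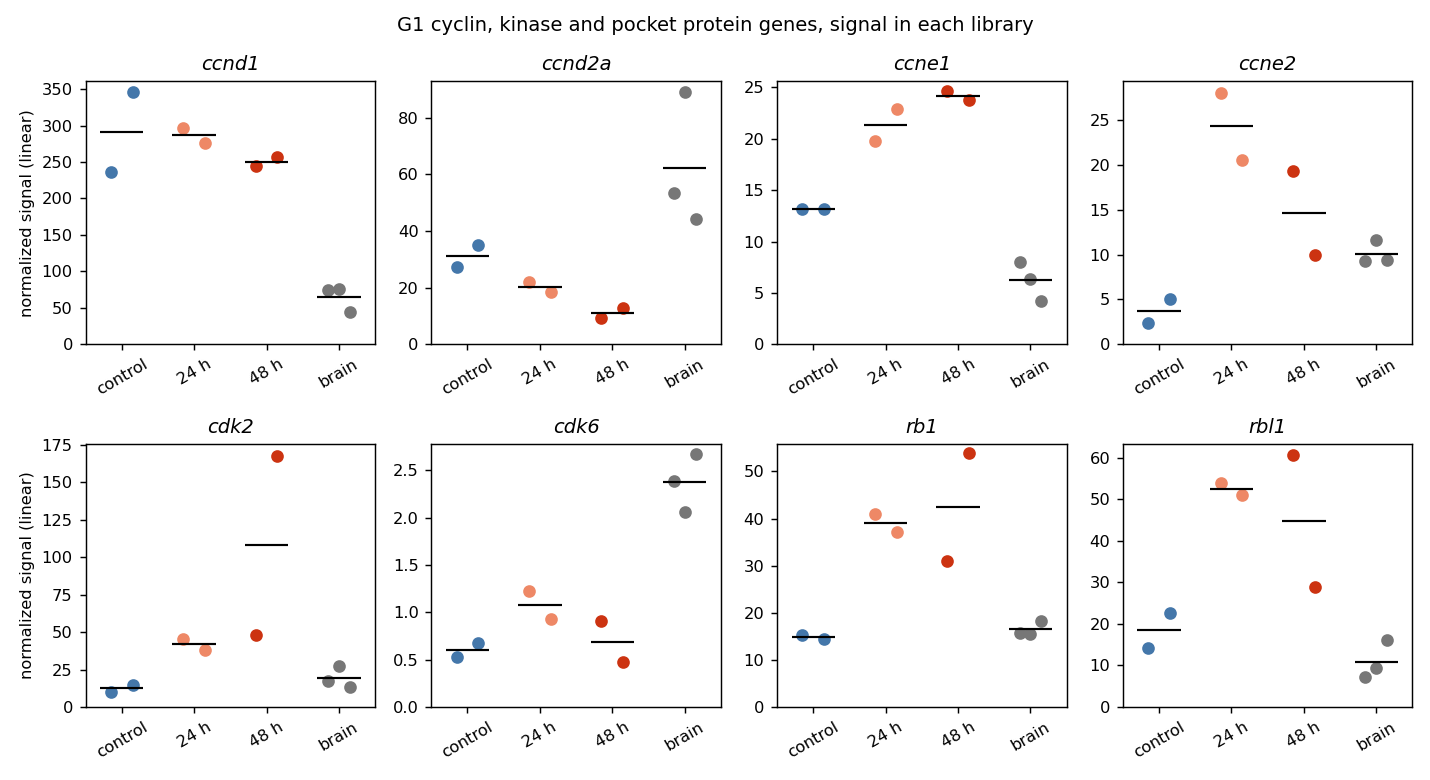
Normalized signal (linear axis from 0) of the 8 genes in each of the 9 libraries, as points, with the group mean as a bar, for control microglia (n = 2), activated microglia at 24 h and 48 h (n = 2 each) and other brain cells (n = 3). The point at 168 for cdk2 is 48 h sample 8, and ccnd1 in other brain cells lies between 43.6 and 75.3, below all 6 microglia libraries.

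The D cyclin gene ccnd1 (ENSDARG00000101637), whose product starts the phosphorylation of Rb with Cdk4 or Cdk6, was high in microglia of every state. Its signal was 237 and 346 in control samples 1 and 5, 297 and 276 in 24 h samples 3 and 7, and 244 and 257 in 48 h samples 4 and 8. Other brain cells had 74.1, 75.3 and 43.6 in samples 2, 6 and 10. All microglia libraries lay above all libraries of other brain cells, and activated libraries lay within the range of the control libraries. The difference from other brain cells was 2.18 ± 0.37 (SE) in control microglia (limma, Benjamini-Hochberg adjusted p = 0.00208) and 2.08 ± 0.28 in activated microglia (adjusted p = 0.000172 in limma with Benjamini-Hochberg). Activated minus control was -0.10 ± 0.22 (adjusted p = 0.827), and its sign turned to 0.17 without control sample 5. The control call was lost without control sample 5, at an adjusted p of 0.0505.

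The other D cyclin of the 8 genes, ccnd2a (ENSDARG00000051748), was lower in all microglia libraries than in all libraries of other brain cells. Its signal was 53.3, 88.9 and 44.2 in other brain cells, 27.1 and 34.9 in control microglia, 22.1 and 18.5 after 24 h of MTZ, and 9.37 and 12.7 after 48 h. The 4 ranges did not overlap and descended in that order. With 2 or 3 libraries in a group this order was not tested, and activated libraries lay below control in 15.5% of all genes. Activated microglia were lower, differing from other brain cells by -1.93 ± 0.37 (limma, Benjamini-Hochberg adjusted p = 0.00156). The steps between neighbours in that order were not called: control microglia minus other brain cells was -0.93 ± 0.38 (adjusted p = 0.0914), activated minus control -1.0 ± 0.38 (adjusted p = 0.212) and 48 h minus 24 h -0.83 ± 0.30 (adjusted p = 0.892). With both times pooled, the summed signal of oligodendrocyte lineage, neuron and erythrocyte markers also descended from other brain cells over control to activated microglia. For 6 oligodendrocyte lineage markers it was 15759 to 28795 in other brain cells, 802 to 1683 in control microglia and 212 to 501 in activated microglia, and for 6 neuron markers 1403 to 2527, 111 to 119 and 47.2 to 74.5. For 3 measured erythrocyte markers it was 648 to 1411, 40.6 to 240 and 4.69 to 14.4. For 5 measured lymphocyte markers it fell in that order with overlap, at 15.1 to 37.4, 8.83 to 20.1 and 4.26 to 11.9. Of these markers lck, cd8a and rag1 descended in mean signal and cd79a and pax5 did not. The mean of cd79a was 0.8798 in other brain cells, 6.988 in control and 4.518 in activated microglia, and that of pax5 1.998, 0.5309 and 1.305. The gene cd79a was called higher than in other brain cells in both control and activated microglia (2.06 ± 0.46 and 1.42 ± 0.44). The sums of radial glia, neutrophil and endothelium markers did not descend in that order, with 3813 to 4816, 2.47 to 12.2 and 224 to 256 in control microglia, 3105 to 27234, 5.26 to 31.4 and 305 to 423 in activated microglia, and 6995 to 11753, 51.3 to 85 and 5.63 to 8.07 in other brain cells. Mean signal in other brain cells, control and activated microglia was 5787, 4107 and 11370 for glula, and 1.06, 237.3 and 367.6 for pecam1. In the same order fabp7a, slc1a2b, s100b, gfap, cdh5, lyz and mpx descended, with s100b at 996.2, 49.09 and 10.48. The remaining markers of those lists, her4.1, fli1a, mmp9 and mmp13a, did not descend. All markers of these lists that were measured had reads in each of those groups, and their part in the ccnd2a levels was not tested.

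The kinase gene cdk6 (ENSDARG00000070228), a partner of the D cyclins, was near the limit of detection in microglia. It had 2 and 3 reads in control microglia, 13 and 6 after 24 h of MTZ, 6 and 2 after 48 h, and 17, 17 and 34 in other brain cells. In signal these were 0.532 and 0.68, 1.23 and 0.925, 0.909 and 0.473, and 2.39, 2.06 and 2.67. All microglia libraries lay below all libraries of other brain cells, while activated and control microglia overlapped. The ratio of read rates was 0.17 for control microglia over other brain cells (95% exact interval 0.05 to 0.43, counting error only) and 0.32 for activated microglia (0.20 to 0.51). On the log2 scale, which shrinks changes at such low signal, the differences were -1.07 ± 0.35 (limma, Benjamini-Hochberg adjusted p = 0.0423) and -0.85 ± 0.25 (adjusted p = 0.0166). Genes were tested if their signal reached 1 in 2 libraries, and cdk6 met this only through other brain cells. Among microglia libraries only 24 h sample 3 reached 1. The gene was thus tested because of the group in which it was higher. The control call was lost without either control sample, without sample 2 or 10 of other brain cells, with quantile normalization, with limma-voom and with a pseudocount of 5, at an adjusted p from 0.0537 to 0.318. The activated call was lost with quantile normalization, at -0.11 and an adjusted p of 0.718. For activated over control microglia the ratio of read rates was 1.84, with an interval from 0.70 to 6.13, so that no difference was detectable at this depth.

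The E cyclin genes, whose products drive Cdk2 at the start of DNA synthesis, were both above control in every activated library. For ccne1 (ENSDARG00000098622) the signal was 13.2 and 13.2 in control microglia, 19.8 and 22.9 after 24 h of MTZ, 24.6 and 23.8 after 48 h, and 8.01, 6.39 and 4.26 in other brain cells. Control microglia lay between the other groups, with no overlap on either side. This order was not tested, and activated libraries lay above control in 15.9% of all genes. Activated microglia were higher than other brain cells by 1.75 ± 0.30 (limma, Benjamini-Hochberg adjusted p = 0.000792). Control microglia stood 1.01 ± 0.42 above other brain cells (adjusted p = 0.0988) and activated microglia 0.74 ± 0.20 above control (adjusted p = 0.123), and neither was called.

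For ccne2 (ENSDARG00000098529) the signal was lowest in control microglia, at 2.39 and 5.09. After MTZ it was 28.1 and 20.6 (24 h) and 19.3 and 9.99 (48 h), while other brain cells had 9.29, 11.6 and 9.44. Control microglia lay below all other libraries, and 48 h sample 8 lay within the range of other brain cells. The difference of activated from control microglia was 2.09 ± 0.48 (limma, Benjamini-Hochberg adjusted p = 0.0863), from 19.5 ± 7.44 (SD, n = 4) against 3.74 ± 1.91 (SD, n = 2). It was called without 48 h sample 8 (2.36, adjusted p = 0.036) and with all 9 libraries in the same fit (adjusted p = 0.037), and over all alternatives its adjusted p ran from 0.036 to 0.623. Control microglia stood -1.28 ± 0.45 from other brain cells (adjusted p = 0.0535) and activated microglia 0.81 ± 0.36 (adjusted p = 0.0885), which became 1.08 with an adjusted p of 0.00868 without 48 h sample 8.

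The kinase gene cdk2 (ENSDARG00000026577), the partner of the E cyclins, had its highest signal in 48 h sample 8. It was at 10.3 and 14.8 in control microglia, 45.3 and 38.4 after 24 h of MTZ, 48.4 and 168 after 48 h, and 17.6, 27.5 and 13.6 in other brain cells. All 4 activated libraries lay above all others, and control microglia and other brain cells overlapped. Activated microglia were higher than other brain cells by 1.66 ± 0.50 (limma, Benjamini-Hochberg adjusted p = 0.0185), a call lost without sample 2 (adjusted p = 0.0682) or sample 10 (adjusted p = 0.0732) of other brain cells. Activated minus control was 2.22 ± 0.62 (adjusted p = 0.127), and without 48 h sample 8 the difference was smaller, at 1.75, and was called (adjusted p = 0.0337). Over all alternatives the adjusted p of activated minus control ran from 0.0337 to 0.611.

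The pocket protein genes, which restrain E2F, were also above control in every activated library. For rb1 (ENSDARG00000006782) the signal was 15.2 and 14.5 in control microglia, 41 and 37.2 after 24 h of MTZ, 30.9 and 53.9 after 48 h, and 15.8, 15.5 and 18.3 in other brain cells. Control microglia and other brain cells lay close together, and every activated library lay above both. Activated microglia were higher than other brain cells by 1.23 ± 0.28 (limma, Benjamini-Hochberg adjusted p = 0.00419), while control microglia stood at -0.14 ± 0.34 (adjusted p = 0.795). Activated minus control was 1.37 ± 0.26 (adjusted p = 0.0676), which was called with a filter at 5 (adjusted p = 0.0495), with all 9 libraries in the same fit (0.0415) and without 48 h sample 8 (0.0358). Its adjusted p was 0.611 with the column of sample 9 as a control.

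For rbl1 (ENSDARG00000008141), which encodes p107, the signal was 14.3 and 22.6 in control microglia, 53.9 and 51.1 after 24 h of MTZ, 60.7 and 29 after 48 h, and 7.24, 9.32 and 16.1 in other brain cells. All activated libraries lay above all others, and control microglia and other brain cells overlapped. Activated microglia were higher than other brain cells by 2.08 ± 0.36 (limma, Benjamini-Hochberg adjusted p = 0.000853). Activated minus control was 1.34 ± 0.36 (adjusted p = 0.116), and 1.56 without 48 h sample 8 (adjusted p = 0.036). It was called under only that 1 of 15 alternatives, over which the difference ran from 0.83 to 1.65. Control microglia minus other brain cells was 0.75 ± 0.45 (adjusted p = 0.237). The third pocket protein gene, rbl2, stood at -0.05 ± 0.34 between activated and control microglia (adjusted p = 0.944).

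**Figure D2:**
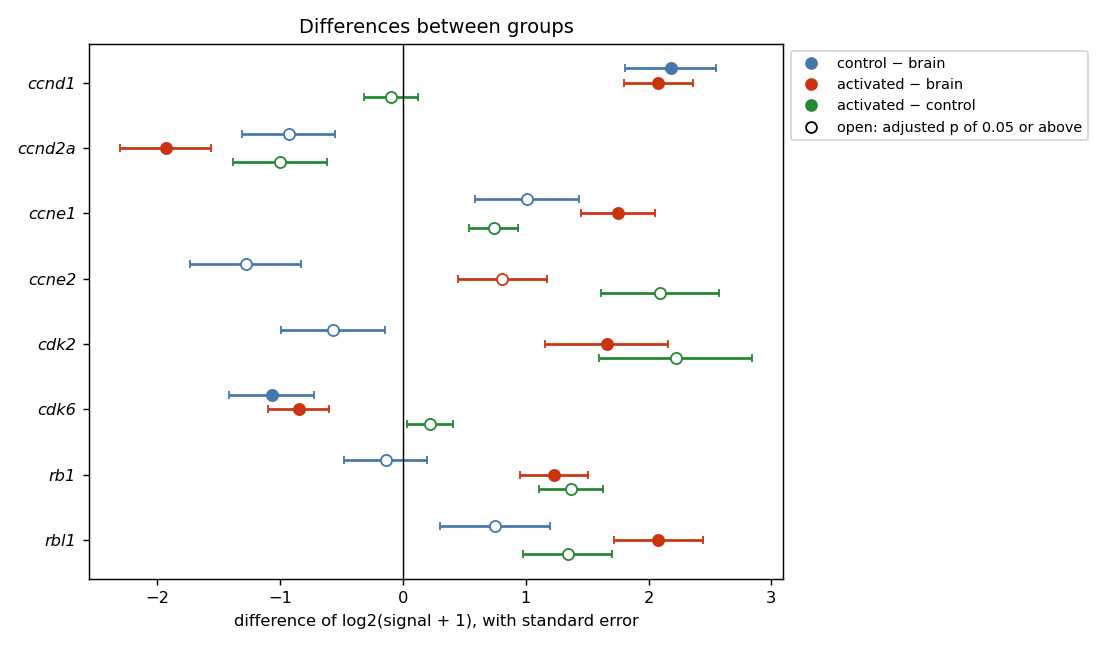
Differences of log2(signal + 1) with their SE for the 8 genes in 3 comparisons; filled points have an adjusted p under 0.05 in limma with Benjamini-Hochberg adjustment. For activated minus other brain cells 7 of 8 points are filled, for control minus other brain cells 2 and for activated minus control 0. The filled points of cdk6 are of a gene tested only because of its signal in other brain cells.

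The genes ccnd2a, ccne1, cdk2, rb1 and rbl1 were called in activated but not in control microglia against other brain cells. That contrast of contrasts is the comparison of activated with control microglia, since the other brain cells are shared, and none of the 5 was called in it. With median ratio scaling the median of all genes moved from -0.05 to -0.41 for activated microglia against other brain cells and 32.5% of calls were higher in place of 45.3%, and 5 higher and 2 lower of the 8 were called under that scaling too. For activated against control microglia, 46.4% of calls were higher with that scaling in place of 64%.

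**Figure D3:**
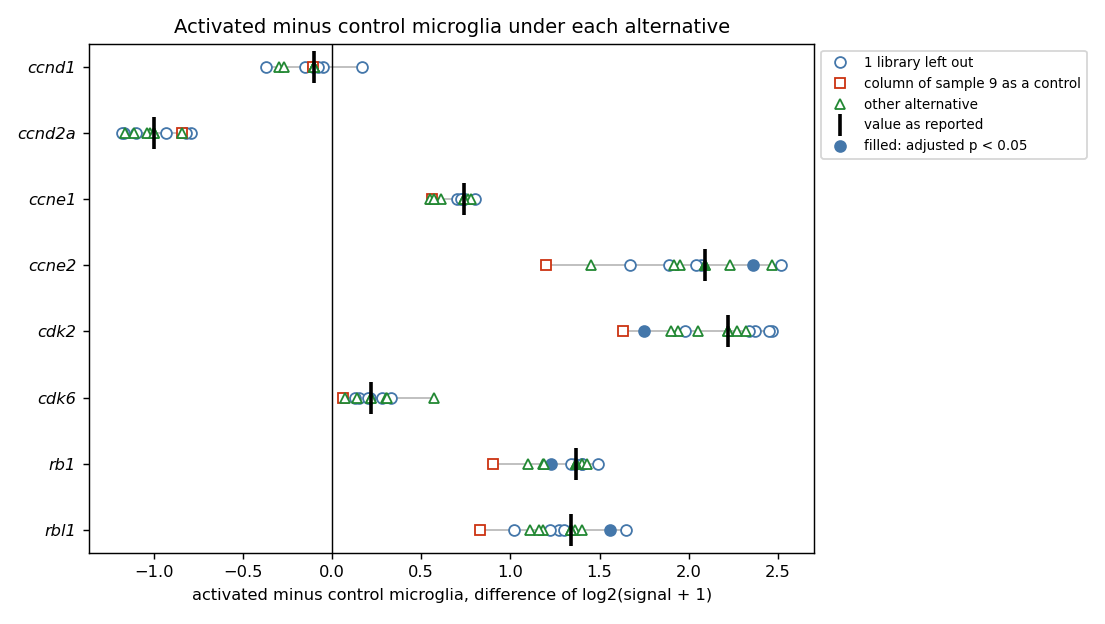
Activated minus control microglia, as the difference of log2(signal + 1), for each gene under every alternative; the black bar is the value as reported, circles leave out 1 library, squares use the column of sample 9 as a control, triangles are the other alternatives (log2 CPM for limma-voom), and filled symbols have an adjusted p under 0.05. For ccne2, cdk2, rb1 and rbl1 the values stay above 0 throughout, from a lowest of 0.83 for rbl1, and are called under 1 to 3 of 15 settings, while ccnd1 lies on both sides of 0. The column of sample 9 repeats 24 h sample 3, so the squares have the same values in both groups.

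Between the time points 0 of the 8 genes were called, and 0% of all genes were in limma with Benjamini-Hochberg adjustment, where 4.14% of all genes (899) and 1 of the 8, ccnd2a, had an unadjusted p under 0.05. limma-voom also called 0 genes, with 1008 at an unadjusted p under 0.05. Without 48 h sample 4, which leaves sample 8 alone at 48 h, 5342 genes had an unadjusted p under 0.05, and again 0 were called. The signal of ccnd2a was 20.3 ± 2.55 (SD, n = 2) at 24 h and 11.1 ± 2.39 (SD, n = 2) at 48 h. The 48 h samples disagreed with each other in several genes. Sample 8 held more cdk2 and rb1 than sample 4 (168 against 48.4, and 53.9 against 30.9) and less ccne2 and rbl1 (9.99 against 19.3, and 29 against 60.7). The normalized signal summed over all genes was 1444667 in sample 8, the highest of all libraries, and 1071065 in sample 4. The part of this scaling in the gaps between the 2 samples was not tested. The 24 h samples were closer, for example 53.9 and 51.1 for rbl1. The spread at 48 h thus exceeded the difference between the times for rb1, at 0.06 ± 0.33, and rbl1, at -0.31 ± 0.43.

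The authors' deposited table of fold changes gave a partly different picture. In that table, cdk2 and ccne2 were higher in pooled activated than in control microglia, by 1.70 (FDR 0.0317) and 1.78 (FDR 0.0321) on the log2 scale. The other 6 genes did not pass an FDR of 0.05 there, including rb1 at 0.80 (FDR 0.314) and rbl1 at 0.93 (FDR 0.246). Of all genes in the authors' deposited table, 2.39% were higher and 3.31% lower in that comparison. By time, the authors' deposited table had cdk2 at 2.39 (FDR 0.00552) for 48 h and 1.02 (FDR 0.455) for 24 h, and ccne2 at 2.15 (FDR 0.0498) for 24 h and 1.41 (FDR 0.187) for 48 h. Of all genes there, 2.4% were higher at 48 h and 0.588% at 24 h than in control microglia. Against other brain cells, the authors' deposited table had ccnd1, ccne1 and rbl1 higher in control microglia (2.20, 1.35 and 1.25; FDR 9.37e-08, 0.0148 and 0.0322) and ccnd2a lower (-1.31; FDR 0.0124), while cdk6 stood at -0.14 (FDR 0.932). In that comparison 17.9% of all genes were higher and 24.9% lower in the authors' deposited table.

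The control level behind the authors' fold changes can be computed by dividing the mean signal at a time point by the deposited fold, or multiplying that of other brain cells by it. For rb1 the 24 h, 48 h and brain folds of the authors' deposited table implied control levels of 23.4, 23.4 and 23.5, where control samples 1 and 5 averaged 14.9 and the mean with the column of sample 9 counted as a control was 23.6. For cdk2 the implied levels were 20.7, 20.6 and 20.8 against 12.6, and for rbl1 25.5, 25.5 and 25.8 against 18.4. For ccne2 they were 5.49, 5.52 and 5.56 against 3.74. The implied control levels of cdk2, rb1, rbl1, ccne1, ccne2 and cdk6 thus lay above both control samples, that of ccnd2a below both, and that of ccnd1, at 293.8 to 294.8, between them. With the column of sample 9 as a control the mean was also close to the implied level for ccne1, at 15.4 beside 15.4 to 15.9, and for ccnd1, at 293.3. It was above the implied level for ccne2, at 11.9, for cdk2, at 23.5, for rbl1, at 30.3, and for ccnd2a, at 28 beside 25.1 to 25.5. For cdk6, which had few reads, the implied levels of 2.16 to 2.81 lay above every microglia library. The libraries behind the authors' control group are not named in the sources used here, and the differences of activated from control microglia given above rest on samples 1 and 5.

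**Figure D4:**
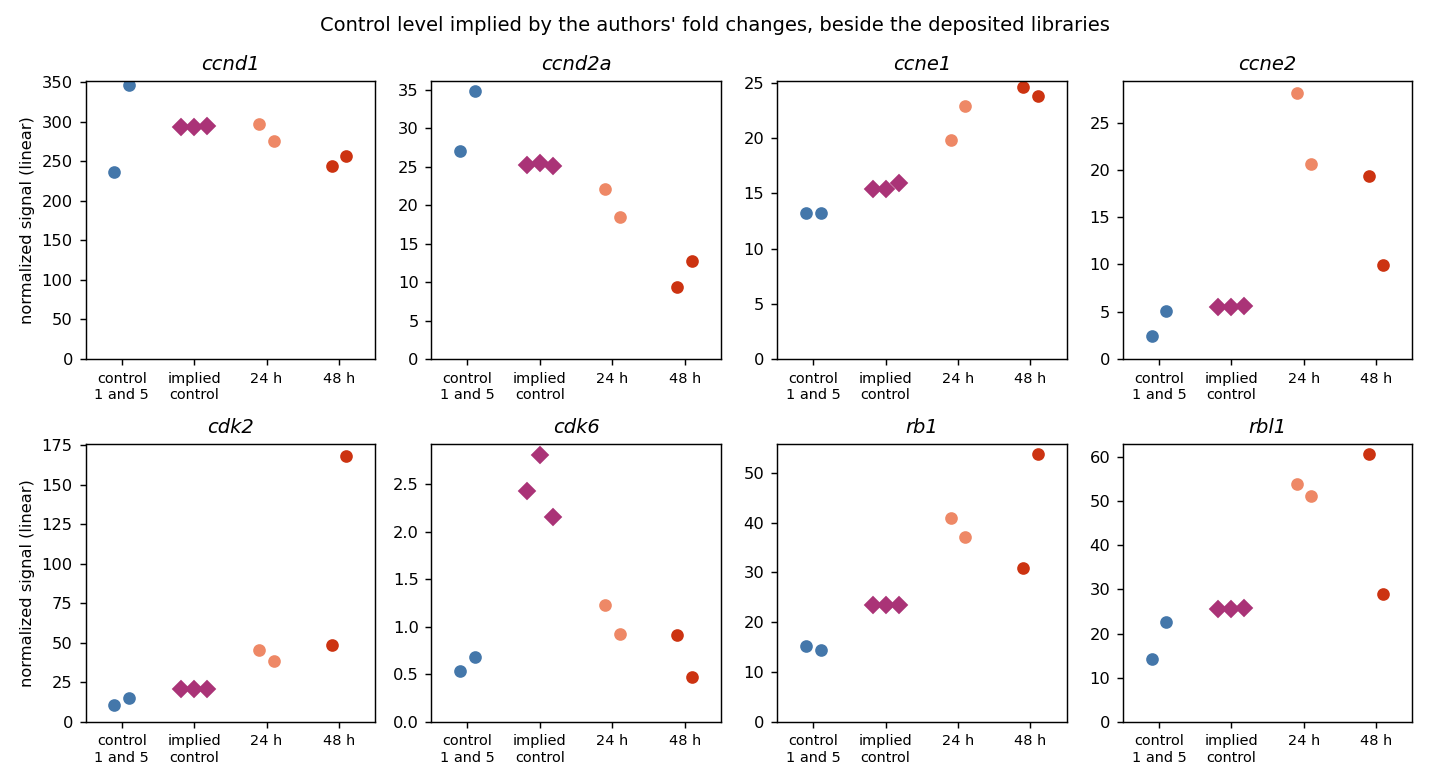
Signal (linear axis from 0) of each gene in control samples 1 and 5, the control level implied by the authors' deposited folds (diamonds; left to right from the 24 h, 48 h and brain folds), and the 24 h and 48 h libraries. The diamonds of rb1 lie at 23.4 to 23.5, above both control samples and below all activated libraries, and those of cdk6 lie above every library shown.

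Paralogues were compared as the difference of log2(signal + 1) of a pair within each library, in which gene length cancels between groups. Of 5 planned pairs, 3 had both genes, which gave 9 tests. For ccne2 minus ccne1 the difference was -2.07 and -1.22 in control microglia, 0.49 and -0.15 after 24 h of MTZ, -0.33 and -1.17 after 48 h, and 0.19, 0.77 and 0.99 in other brain cells. Each activated library lay above both control libraries, and the shift was 1.35 (exact permutation test, two-sided, p = 0.133, adjusted p = 0.225). For ccnd2a minus ccnd1 it was -3.08 and -3.27 in control microglia, -3.69 and -3.83 after 24 h of MTZ, -4.56 and -4.23 after 48 h, and -0.47, 0.24 and 0.02 in other brain cells, with no overlap between these groups. The shift was -0.90 for activated against control microglia, -3.11 for control microglia against other brain cells and -4.01 for activated microglia against other brain cells (exact permutation p = 0.133, 0.2 and 0.0571). For rbl1 minus rb1, activated and control microglia differed by -0.03 (exact permutation p = 1), with activated libraries from -0.87 in 48 h sample 8 to 0.95 in 48 h sample 4. With so few libraries the smallest p these tests allow is 0.133, 0.2 and 0.0571, so none of the 9 could pass 0.05.

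**Figure D5:**
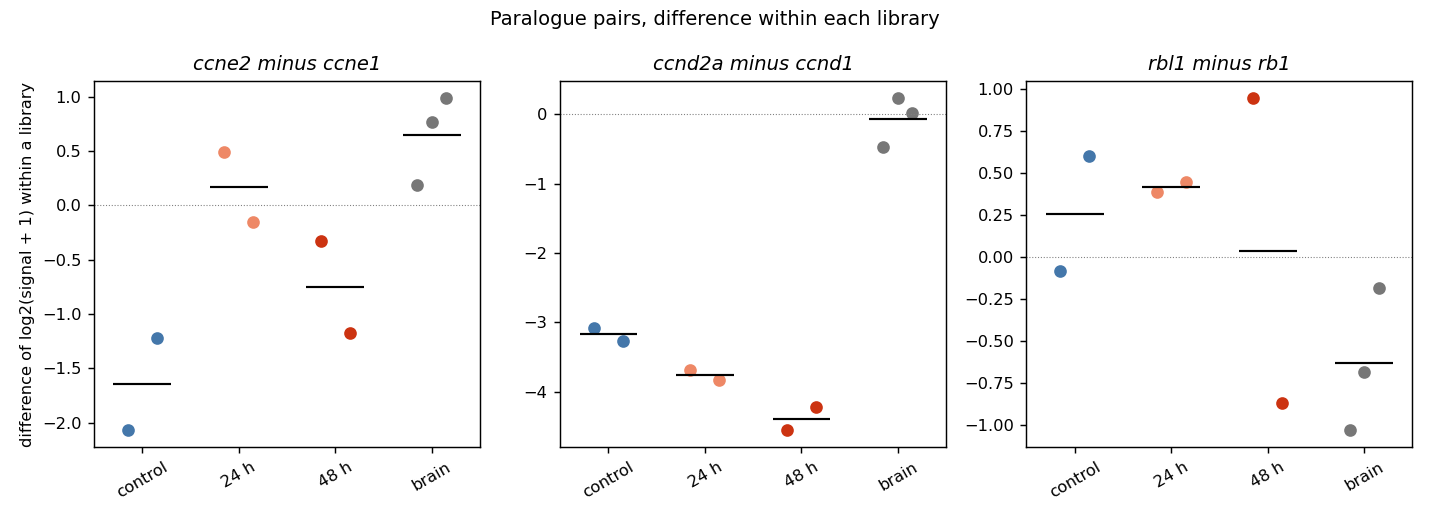
Difference of log2(signal + 1) between 2 paralogues within each library (points), with the group mean as a bar; differences near 0 mean equal signal, not equal transcript number, since gene lengths differ. For ccnd2a minus ccnd1 the microglia libraries lie between -4.56 and -3.08 and those of other brain cells between -0.47 and 0.24.

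Other genes of the pathway were taken from 7 lists. Of 28 tested E2F target genes, which serve DNA synthesis, 9 were called higher and 0 lower in activated than in control microglia. Among all genes 0.834% were called higher and 0.47% lower. The median difference of the 28 was 2.12 beside 0.01 for all genes. The 9 calls are among 283 over all genes. Without 24 h sample 3 or 7, without 48 h sample 4, or with the column of sample 9 as a control, 0 genes were called at all (3675, 3631, 3705 and 1466 at an unadjusted p under 0.05). With that column the values of 24 h sample 3 stood in both groups, so fewer calls were built in. The helicase gene mcm2, which opens DNA for replication, stood at 166 ± 35.5 (SD, n = 4) against 10.5 ± 4.23 (SD, n = 2), and cdca7a, a replication-linked gene, at 72.6 ± 35.1 against 6.8 ± 2.53. The summed signal of the 28 E2F target genes was 423 and 491 in control microglia, 450, 397 and 518 in other brain cells, 2348 and 1771 after 24 h of MTZ, and 1879 and 2857 after 48 h. All activated libraries lay above all others in this sum. Against other brain cells, where 22.9% of all genes were higher, 24 of the 28 were higher in activated microglia, among them mcm4 by 3.55 ± 0.39. In control microglia 0 of the 28 were higher and 1, ccna2, lower, where 15.1% of all genes were higher and 20.2% lower.

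Of 12 Rb, E2F and DP factors, 0 were called between activated and control microglia, where 0.834% of all genes were called higher and 0.47% lower. The median difference of the 12 was 0.77, beside 0.01 for all genes. Those with the lowest adjusted p were e2f3, an activator, at 1.50 ± 0.27 (limma, Benjamini-Hochberg adjusted p = 0.0633) and the DP partners tfdp1a and tfdp1b at 1.46 ± 0.30 and 1.45 ± 0.29 (adjusted p = 0.0749 and 0.0721), which were named after their values were seen. Against other brain cells 6 of the 12 were higher and 2 lower in activated microglia, where 22.9% of all genes were higher and 27.6% lower. The repressor e2f8 was higher by 2.28 ± 0.42 and E2F1 by 1.64 ± 0.44, and tfdp2 and e2f5, lower, stood at -2.23 ± 0.44 and -1.52 ± 0.27. In control microglia 0 were higher and 2 lower, again tfdp2 and e2f5, where 15.1% of all genes were higher and 20.2% lower. The gene e2f5 had 0 reads in both control libraries and at most 0.9208 in signal in activated libraries. It passed the filter, a signal of 1 in 2 libraries, only through other brain cells. The list of DREAM and MuvB genes holds genes that keep cell cycle genes silent in resting cells, and also the Myb genes mybl1 and mybl2b. Of its 10 tested genes 1, the histone-binding subunit gene rbb4l, was higher in activated than in control microglia (85.3 ± 12.9, SD, n = 4, against 26.2 ± 6.35, SD, n = 2). Among all genes 0.834% were called higher in that comparison.

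Of 10 genes on the list of CDK inhibitors, 0 were called between activated and control microglia, where 0.834% of all genes were called higher and 0.47% lower. The median difference of the 10 was -0.43, beside 0.01 for all genes. Against other brain cells, control microglia had 4 of these listed genes lower and 0 higher, where 20.2% of all genes were lower and 15.1% higher. The 4 included cdkn2aip, at -1.34 ± 0.38, which is named for binding a Cdkn2a product and is not itself a CDK inhibitor. The largest differences were -2.85 ± 0.46 for cdkn1ca, a p57 gene, and -1.62 ± 0.31 for cdkn1d, and cdkn2c, a p18 gene that blocks Cdk4 and Cdk6, stood at 3.52 ± 0.507 (SD, n = 2) against 13.1 ± 5.54 (SD, n = 3). Activated microglia had 4 lower and 1 higher, where 27.6% of all genes were lower and 22.9% higher, and the higher one was cdkn1a, the p21 inhibitor of Cdk2, at 8.2 ± 3.41 (SD, n = 4) against 2.05 ± 0.965 (SD, n = 3). In activated against control microglia cdkn1a stood at 1.58 ± 0.41 (limma, Benjamini-Hochberg adjusted p = 0.111).

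Among cyclin and kinase partners 1 of 12, CDC37, which loads kinases onto the chaperone Hsp90, was higher in activated than in control microglia (16.7 ± 0.895, SD, n = 4, against 3.44 ± 1.48, SD, n = 2). Of all genes 0.834% were called higher in that comparison. In control microglia against other brain cells 1 of the 12 was higher and 4 were lower, and 35.2% of all genes were called in either direction. The higher one was wee2, a kinase gene of the Wee family that restrains Cdk1, and the lower ones included cks2, ccna2 and wee1, with the cyclin A gene ccna2 at 3.67 ± 0.505 (SD, n = 2) against 17.9 ± 5.06 (SD, n = 3). In activated microglia against other brain cells 3 of the 12 were higher and 1 lower, where 22.9% of all genes were higher and 27.6% lower. The 1 lower was ccnd2b, a D cyclin gene outside the 8, at -1.11 ± 0.34 (limma, Benjamini-Hochberg adjusted p = 0.0203). Its mean signal was 2.77 in other brain cells, 1.92 in control and 0.855 in activated microglia. Of 8 genes of cyclin E turnover 1, cul1a, a scaffold of the SCF ubiquitin ligase, was higher in activated than in control microglia, by 1.24 ± 0.19, where 0.834% of all genes were. Against other brain cells 0 of these 8 were higher and 1 lower in control microglia, where 15.1% of all genes were higher and 20.2% lower. In activated microglia 4 of the 8 were higher, among them skp2 at 1.36 ± 0.35, and 1 lower, where 22.9% of all genes were higher and 27.6% lower. The lower one was both times fbxw7, whose product marks cyclin E for degradation, at -2.39 ± 0.39 in control and -1.70 ± 0.31 in activated microglia. Of 19 mitogen and Myc inputs 0 were called between activated and control microglia, where 0.834% of all genes were called higher and 0.47% lower. Their median difference was 0.51, beside 0.01 for all genes. Against other brain cells 9 of the 19 were higher and 2 lower in control microglia, where 15.1% of all genes were higher and 20.2% lower. In activated microglia 10 were higher and 2 lower, where 22.9% of all genes were higher and 27.6% lower. Another Myc gene than mycn, mych, named after its values were seen, was higher in control microglia (3.34 ± 0.57). The gene csf1ra, the receptor for microglial growth factors, was higher and mycn was lower in control microglia (5.90 ± 0.39 and -4.59 ± 0.51). The same held for csf1ra and mycn in activated microglia (6.92 ± 0.37 and -4.16 ± 0.51).

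The summed signal of 6 markers of dividing cells (mki67, top2a, aurkb, ccnb1, cdk1 and plk1) was 92.1 and 47 in control microglia, 189 and 114 after 24 h of MTZ, 593 and 501 after 48 h, and 165, 130 and 164 in other brain cells. Both 48 h libraries held more than any other library, and 24 h sample 7 held less than all libraries of other brain cells. Of these 6 markers 0 were called between activated and control microglia, where 0.834% of all genes were called higher and 0.47% lower. Their median difference was 2.13, beside 0.01 for all genes. Between the times 0 of the 6 were called, as were 0% of all genes. The part of these markers in the levels of the G1 genes was not tested. Of the other 8 marker lists, 6 had 0 members called between activated and control microglia. The exceptions were the erythrocyte gene slc4a1a, which was lower (-1.24 ± 0.17), and fli1a of the endothelium list, which was higher (2.07 ± 0.32). The other 2 measured genes of that list were not called, with cdh5 at -1.07 ± 0.24 and pecam1 at 0.62 ± 0.22, and the signal of pecam1 was 1.06 ± 0.74 (SD, n = 3) in other brain cells but 237.3 ± 23.8 (SD, n = 2) in control microglia. Summed erythrocyte markers were at 40.6 to 240 in control microglia, 4.69 to 14.4 in activated microglia and 648 to 1411 in other brain cells, and their part in the levels of the G1 genes was not tested.

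The genes whose signal followed each member most closely were taken from 7288 genes with a mean of at least 20, by the Pearson correlation of log2(signal + 1) over the 9 libraries, as a description across libraries of unlike cells. For cdk2 they were asf1ba, a histone chaperone gene (0.985), and psma6a, a proteasome subunit gene (0.982). For rb1 they were psmc2, another proteasome subunit gene (0.986), and uqcrc1, of respiratory complex III (0.983), and for rbl1 nup107, of the nuclear pore (0.988), and elf2b (0.986). For ccnd1 they were zgc:92161 (0.993) and tram1, of protein translocation into the endoplasmic reticulum (0.992), and for ccnd2a epd, an ependymin gene (0.965), and calm1b, a calmodulin gene (0.964). The other 3 genes had a mean under 20 and were not ranked.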

How the data were processed

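Gene expression was measured in 10 libraries of sorted zebrafish brain cells. Build GRCz10, TopHat2 2.0.5, SAMtools 0.1.18 and edgeR are named in the submitters' processing notes; counting, strand and annotation are not given in the sources used here, so reads of overlapping or antisense genes cannot be told apart. The authors deposited a normalized signal per gene, whose columns sum to between 728524 and 1444667, and their own log2 fold changes with FDR values (adjusted p-values). Within each column of the deposited signal values lie above 0.223 by whole multiples of 1 step, to within 6.2e-05 steps, from which reads were computed here.

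The column of sample 9, identical to that of 24 h sample 3, was left out. Genes whose signal reached 1 in 2 or more libraries were fitted with limma 3.58.1 (R 4.3.3; log2(signal + 1), mean-variance trend, two-sided), with only the compared groups in a fit (48 h and 24 h with control microglia). Paralogue differences were tested with exact permutation tests (scipy 1.17.1). The fit was tested on simulated data. The alternatives were other pseudocounts, filters and scalings, limma-voom, all 9 libraries together, the column of sample 9 as a control, and each library left out. With that column, control and activated microglia share the values of 24 h sample 3, so a weaker difference between them is built in.

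The members and all lists were chosen with earlier results of these data known. Symbols on more than 1 row, and listed genes with none, were not counted. All 8 member IDs matched a reference name. Other genes were named by rule: the 4 largest differences called per list, and for likeness the 2 closest genes; exceptions are stated. No genome or sequence of the files' build was used, so positions are not given.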

Additional observations from a re-analysis of the deposited data

Results flagged for a closer look

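The signal of cdk2 in 48 h sample 8, at 168, lay apart from the other 3 activated libraries, at 38.4 to 48.4. Its gap to the nearest library was 0.923 of the whole range of the 4, above the Dixon limit of 0.829 for 4 values. Of 11 sets of 4 activated values examined (8 genes and 3 paralogue pairs) this was the only 1 past that limit, which chance passes in about 1 in 20 sets. It rests on 1338 reads, where the other activated libraries had 326 to 581. Without this library activated minus control microglia was 1.75 for cdk2 in place of 2.22.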

How the results depend on the processing

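Of 452 values of single genes under an alternative, 418 kept their direction and side of the threshold, 16 gained a call, 11 lost one and 7 turned sign. With the column of sample 9 as a control, control microglia minus other brain cells turned to 0.03 for cdk2 and 0.33 for rb1. For 48 h minus 24 h, rb1 was -0.05 with quantile normalization and ran from -0.33 to 0.46 with 1 library left out, and rbl1 from -0.83 to 0.21. For activated minus control microglia, ccnd1 ran from -0.37 to 0.17 and rbl1 minus rb1 from -0.37 to 0.34 with 1 library left out.

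For control microglia against other brain cells (7648 genes and 2 of the 8 called), 3987 to 8122 genes and 0 to 2 of the 8 were called with 1 library left out. Of the 8, 1 was called with a pseudocount of 5, quantile normalization or limma-voom, and 4 with median ratio scaling, all 9 libraries or the column of sample 9. For activated against control microglia (283 and 0), 0 to 1550 genes and 0 to 4 of the 8 were called with 1 library left out. The gene count was 651 with a filter at 5 (1 of the 8), 613 with quantile normalization, 46 with limma-voom, 563 with all 9 libraries (2 of the 8) and 0 with the column of sample 9, where 1466 genes had an unadjusted p under 0.05; it was also 0 without sample 3, 7 or 4, and 19 without control sample 1. With the column of sample 9 the values of 24 h sample 3 stood in both of these groups. The causes were not tested. The counts of calls for activated microglia against other brain cells stayed within 1.5 times and those between the times stayed at 0, though genes at an unadjusted p under 0.05 between the times went from 899 to 5342 without 48 h sample 4. No value for cdk6 was had with the filter at 5. Depth limits cdk6 most, with 2 to 13 reads per microglia library. No paired analysis was run, because the groups share no replicate numbers and no label pairs their samples.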
